A study of Sus scrofa with 6 samples.

Results

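The unfolded protein response and the amino acid response share a transcription factor, ATF4, and were followed here through 6 genes: ATF4, XBP1, DDIT3, SDF2L1, HERPUD1 and ASNS. The probe sets described are all those that the array's annotation gives to only 1 of these symbols. That rule found 6 probe sets for 5 of the 6 genes, out of 6765 genes named in this way by the array: 2 for ATF4 and 1 each for XBP1, DDIT3, SDF2L1 and ASNS. HERPUD1, an endoplasmic reticulum (ER) membrane protein of the degradation machinery, had 0 and is not analysed here. Of the ATF4 probe sets, 1 was too dim to be tested, which left 5 tested probe sets, 1 per gene.

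The transcripts came from follicles isolated from the ovaries of prepubertal gilts, female pigs yet to reach puberty, hybridized to an Affymetrix porcine array. Follicles had been sorted by their morphology and diameter into 3 stages, labelled primordial, middle and last, with 2 arrays titled as biological replicates in each. The stages rest on the titles, since a description on all 6 samples calls them primordial. No strain, age in days, treatment or genotype is given for any group. No label ties the replicates to different animals, and the p-values then cover the spread among these samples alone, which may be technical. In such bulk samples fewer cells of a type and less RNA per cell cannot be told apart.

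Proteins that enter the ER must fold there before they are secreted, and unfolded protein switches on 3 sensors in the ER membrane. PERK, encoded by EIF2AK3, phosphorylates the translation factor eIF2 alpha (EIF2S1), which slows protein synthesis in general but favours translation of ATF4. IRE1 (ERN1) splices the XBP1 transcript into its active form, and ATF6 is cut to release a transcription factor, and these raise chaperones and the machinery that removes misfolded protein. Lack of amino acids acts through another eIF2 alpha kinase, GCN2, and so also through ATF4, whose targets include ASNS, amino acid transporters and aminoacyl-tRNA synthetases. Granulosa and theca cells and the oocyte all secrete proteins, among them inhibins, matrix and the zona pellucida. An array signal is a transcript level and reports neither phosphorylation, translation nor splicing.

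The stage labels were set against markers of the cells a follicle holds. The summed signal of 11 oocyte markers was 495 and 482 in the primordial stage, 20064 and 21821 in the middle stage and 907 and 888 in the last stage. On the arrays labelled primordial the germ cell gene DPPA5 was at 4.9 and 6.3, against 4196 and 3598 in the middle stage, and ZP2, of the zona pellucida, at 21.9 and 22.9, against 1800 and 2200. Most of these markers passed the filter on dim probe sets only through the middle arrays, so no count of calls is given for them. The summed signal of 11 immune markers was 53363 and 52351 in the primordial stage, against 1712 and 1435 in the middle stage and 2706 and 5108 in the last stage. In the primordial stage SPP1 (20412 and 21174) and IL1B (14188 and 13875) held the largest parts of that sum. The pan-leukocyte gene PTPRC was between 21.0 and 56.5 on all arrays, and CD14 between 18.5 and 79.6. Granulosa markers summed to 31734 and 42950 in the primordial stage, 12020 and 17593 in the middle stage and 51061 and 44895 in the last stage. That sum was carried by INHA, HSD17B1, FST and NR5A2, and the list was not uniform: AMH was at 198.6 and 273.0, then 969.5 and 1764, then 106.6 and 112.7, and INHBA had no called difference.

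The arrays titled primordial thus had the lowest oocyte marker sums and the highest immune marker sums of the 6. The oocyte sums were also low in the last stage (907 and 888). DDX4, also on the oocyte list, was dim on all arrays (2.5 to 63.0), with both middle arrays (37.2 and 63.0) above the others. These sums alone do not settle whether the title is right. The stage names below are those of the titles, and the direction of every stage difference rests on them. Pairs of values, above and below, are in the order of replicate 1 and 2.

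ATF4, SDF2L1 and DDIT3 had a trough in the middle stage, ASNS was low in the last stage, and XBP1 differed least. ATF4 was 5.18-fold lower in the middle stage than in the primordial stage and SDF2L1 7.32-fold, and both rose again in the last arrays, by 2.42-fold and 2.63-fold, to levels that stayed below the first. ASNS did not follow them. It had no called difference between the primordial and middle arrays and was 4.69-fold lower in the last arrays than in the middle arrays. Differences are given on the log2(signal + 16) scale ± the fitted standard error, from 2 arrays a stage. They were tested with limma over 14399 probe sets with Benjamini-Hochberg adjustment and called at an adjusted p under 0.05. A fold on this scale understates the change of a dim probe set.

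**Figure D1:**
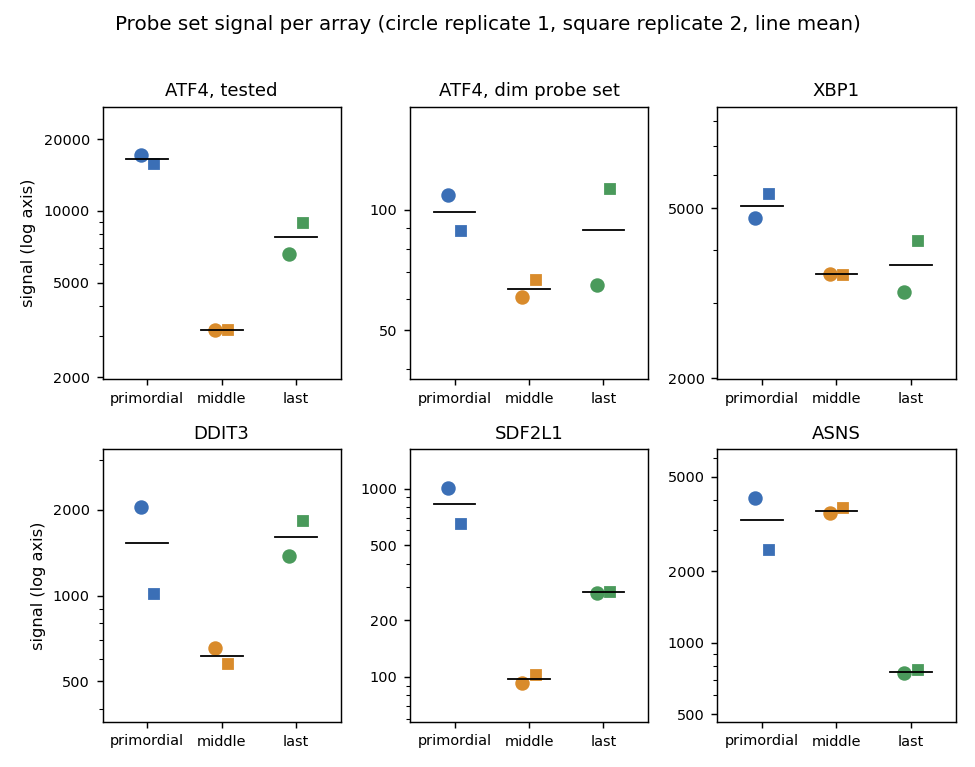
Signal of each member probe set on each array, on a log axis with its own range per panel, by stage (circle replicate 1, square replicate 2, line mean of the 2 arrays). ATF4 lies at 3150 and 3165 in both middle arrays against 17089 and 15761 in those labelled primordial, and ASNS lies at 743 and 769 in the last arrays against 2471 to 4084 elsewhere.

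ATF4, the basic leucine zipper factor at which the stress pathways meet, had signals of 17089 and 15761 in the primordial stage, 3150 and 3165 in the middle stage and 6589 and 8930 in the last stage. The 3 stages did not overlap, with primordial highest, last between and middle lowest. This order without overlap was held by 7.59% of all probe sets tested. The difference was -2.37 ± 0.17 from primordial to middle (adjusted p = 1.6e-05), 1.28 ± 0.17 from middle to last (adjusted p = 0.0012) and -1.10 ± 0.17 from primordial to last (adjusted p = 0.00163). All 3 calls were kept in each of 15 alternative settings. The second ATF4 probe set was at 108.8 and 88.4, then 60.5 and 66.6, then 64.8 and 112.9. It fell under the filter on dim probe sets, and in a fit without that filter its differences of -0.52 ± 0.38, 0.36 ± 0.38 and -0.16 ± 0.38 were not called (adjusted p = 0.347, 0.617 and 0.827).

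XBP1, the factor whose spliced form drives ER chaperone genes, had signals of 4737 and 5411 in the primordial stage, 3514 and 3491 in the middle stage and 3185 and 4194 in the last stage. The primordial arrays lay above all others, while the middle arrays lay inside the range of the last arrays. XBP1 was lower in the middle arrays by -0.53 ± 0.18 (adjusted p = 0.036), a call that did not hold widely. It was lost with quantile normalization (-0.28, adjusted p = 0.22), without the filter on dim probe sets (adjusted p = 0.0534), without an intensity trend (0.087), without primordial replicate 1 (0.0718) or 2 (0.193) and without middle replicate 1 (0.119) or 2 (0.115), over a range of 0.00696 to 0.22. Last minus middle was 0.06 ± 0.18 (adjusted p = 0.848) and last minus primordial -0.47 ± 0.18 (adjusted p = 0.0727). The latter passed without last replicate 2 (-0.67, adjusted p = 0.0298) and with median centring of the arrays (-0.60, 0.0307), over a range of 0.0298 to 0.33. No stage difference of XBP1 was called by limma's F-test (adjusted p = 0.058), against 50.3% of all probe sets tested.

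DDIT3, also called CHOP, a transcription factor downstream of ATF4 that favours cell death under lasting stress, had signals of 2043 and 1013 in the primordial stage, 653 and 575 in the middle stage and 1375 and 1831 in the last stage. Both middle arrays were below all others, and the primordial arrays enclosed the last ones. The primordial replicates differed 2.02-fold, a wider gap on the log2 scale than 96.6% of probe sets had between those arrays. DDIT3 was lower in the middle than in the primordial arrays by -1.21 ± 0.31 (adjusted p = 0.0109) and higher in the last than in the middle arrays by 1.35 ± 0.31 (adjusted p = 0.018), while last minus primordial was 0.14 ± 0.31 (adjusted p = 0.762). The first call was lost without primordial replicate 1 (-0.71, adjusted p = 0.0852), middle replicate 1 (-1.30, 0.0538) or middle replicate 2 (-1.12, 0.073), over a range of 0.0026 to 0.0852. The second was lost without middle replicate 1 (1.44, adjusted p = 0.108), middle replicate 2 (1.26, 0.103) or last replicate 2 (1.15, 0.0751), over a range of 0.00598 to 0.108.

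SDF2L1, an ER protein that works with the chaperone HSPA5 and its partner DNAJB11, had signals of 1009 and 652 in the primordial stage, 92.4 and 101.9 in the middle stage and 279.7 and 282.2 in the last stage. As for ATF4, the stages did not overlap and the order was primordial, last, middle. The difference was -2.87 ± 0.26 from primordial to middle (adjusted p = 5.19e-05), 1.39 ± 0.26 from middle to last (adjusted p = 0.00702) and -1.48 ± 0.26 from primordial to last (adjusted p = 0.00306). The rise from middle to last was lost without middle replicate 1 (1.33, adjusted p = 0.0715), over a range of 0.00326 to 0.0715, and the other calls were kept in all 15 alternatives. Of all probe sets tested, 1.68% had a difference as low or lower than that of SDF2L1 in middle minus primordial, and 2.56% as low or lower than that of ATF4.

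ASNS, asparagine synthetase, which makes asparagine from aspartate and glutamine, had signals of 4084 and 2471 in the primordial stage, 3510 and 3698 in the middle stage and 743 and 769 in the last stage. The middle arrays lay within the range of the primordial arrays, and both last arrays lay below all others. Middle minus primordial was 0.18 ± 0.24 (adjusted p = 0.556), with a sign that turned when arrays were centred on their medians (-0.060) or when primordial replicate 2 was left out (-0.18). ASNS was lower in the last than in the middle arrays by -2.23 ± 0.24 (adjusted p = 0.000342) and than in the primordial arrays by -2.05 ± 0.24 (adjusted p = 0.000389), and both calls were kept in all 15 alternatives. Within each array, the log2 difference of ATF4 and ASNS was 2.06 and 2.67 in the primordial stage, -0.16 and -0.22 in the middle stage and 3.12 and 3.51 in the last stage. The stages did not overlap in it, so the transcripts changed unequally. This ratio had no fitted test, and an exact two-sided permutation of 2 arrays against 2 cannot give a p below 0.333.

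**Figure D2:**
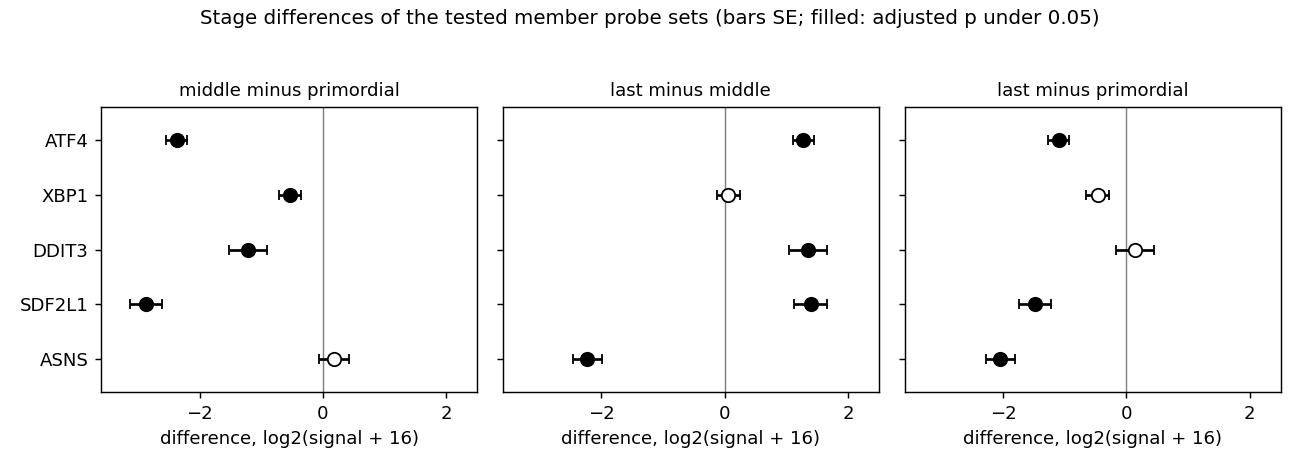
Stage differences of the 5 tested member probe sets on the log2(signal + 16) scale, with bars for the standard error (n = 2 arrays per stage) and filled points for an adjusted p under 0.05. ATF4 and SDF2L1 are called in all 3 comparisons, DDIT3 in those with the middle stage, XBP1 in middle minus primordial alone and ASNS in those with the last stage.

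Counted together, 4 of the 5 tested members were called lower in the middle than in the primordial arrays, where 17.7% of all 14399 probe sets were called lower and 29.7% higher (47.4% in all). From middle to last, 3 were called higher and 1 lower, against 7.29% and 9.94% of all probe sets (17.2% in all). From primordial to last, 3 were called lower, against 13.4% lower and 19.8% higher (33.2% in all). Set against the mean of the other stages, the middle arrays were lower in ATF4 (-1.82 ± 0.15), SDF2L1 (-2.13 ± 0.23) and DDIT3 (-1.28 ± 0.27) and higher in ASNS (1.20 ± 0.20), where 14% of all probe sets were called lower and 23.5% higher, 37.5% in all (adjusted p = 4.01e-05, 0.000184, 0.00576 and 0.00203). The DDIT3 call here was lost without middle replicate 1 (-1.37, adjusted p = 0.0557) or 2 (-1.19, 0.0596), over a range of 0.00148 to 0.0596. ATF4, DDIT3 and SDF2L1 were called both lower in the middle than in the primordial arrays and higher in the last than in the middle arrays, as were 4.66% of all probe sets. Both primordial arrays lay above both middle arrays for 4 of 5 members (29.2% of all probe sets) and above both last arrays for 4 of 5 (27.9%). Both last arrays lay above both middle arrays for 3 of 5 (25.2%), and the middle arrays were below all others for the same 3, ATF4, DDIT3 and SDF2L1 (14.6%). These comparisons share arrays and are not independent of each other. The count for middle minus primordial was 2 without primordial replicate 1, middle replicate 1 or middle replicate 2, with ATF4 and SDF2L1 left, and the count for last minus middle was 2 without middle replicate 1, with ATF4 and ASNS left. The median difference over all probe sets was 0.22 from primordial to middle, -0.068 from middle to last and 0.14 from primordial to last. Median centring brought the first of these to -0.022 and moved the calls of all probe sets in that comparison from 62.7% to 47.5% higher.

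Other measured quantities also differed between the stages. All 10 tested immediate-early genes, transcripts induced within minutes of a stimulus, were called lower in the middle than in the primordial arrays. Of the 5432 genes tested at 1 probe set, 22.5% were called lower there. From middle to last 8 of the 10 were called higher, against 8.8% of all those genes. The summed signal of the 10 was 88476 and 71814 in the primordial stage, 26756 and 24403 in the middle stage and 71779 and 89037 in the last stage. The immune marker sums given above were lowest in the middle stage and second lowest in the last stage, the order that ATF4 had. They were 2706 and 5108 in the last stage, against 53363 and 52351 in the primordial stage. In the last stage 3 of the 9 tested immune markers were called higher than in the middle stage, against 8.8% of all genes. Stromal fibroblast markers summed to 1003 and 837, then 19878 and 12669, then 18127 and 14945. Theca markers summed to 6773 and 6147, then 3602 and 5070, then 19048 and 22581, and endothelial markers to 1411 and 1503, then 853 and 751, then 2205 and 2866. Smooth muscle and pericyte markers summed to 6542 and 6042, then 8509 and 9876, then 30038 and 29864. These last 3 sums were highest in the last arrays, where ASNS was lowest, and the theca and endothelial sums were lowest in the middle arrays. Neither of these 2 lists was uniform. Both middle arrays lay below both primordial arrays for CYP11A1 (256.2 and 1090 against 4673 and 4311), LHCGR, PECAM1 and FLT1. They lay above them for CYP17A1, STAR, INSL3, NR5A1 and CDH5, while VWF, KDR and TEK overlapped. Markers of plasma cells summed to 563 and 726, then 765 and 659, then 693 and 2957. Between the 3′ and 5′ probe sets of the actin control the log2 gap was 3.38 ± 0.25 (SD, n = 2) in the primordial stage, 4.60 ± 0.54 in the middle stage and 3.73 ± 0.23 in the last stage, and for GAPDH it was 3.06 ± 0.53, 3.04 ± 0.35 and 1.88 ± 0.024. The GAPDH gap was lower in the last stage alone. For the EF1A control the gap was 0.84 ± 0.24, 1.10 ± 0.33 and 0.76 ± 0.088, and its primordial and middle arrays overlapped. The mean gap was largest in the middle stage for actin and EF1A but not for GAPDH. The part of all these, the immediate-early genes included, was not tested. This holds for the results on ATF4, DDIT3, SDF2L1, ASNS, the ER genes and the regulators ATF3, CEBPB and PPP1R15A.

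The other genes of the pathways, grouped by role and taken at 1 probe set per gene, were called lower in the middle arrays more often than higher. Of 121 on the array 117 were tested, in lists drawn up with earlier results of these data known. In middle minus primordial 46 were called lower and 16 higher, against 22.5% and 22.9% of the 5432 genes tested at 1 probe set (45.5% in all), and their median was -0.37 against 0.06 over all those genes. From middle to last 18 were called higher and 8 lower (8.8% and 7.23% of all genes, 16% together), with a median of 0.15 against 0.02. From primordial to last 30 were called lower and 10 higher (15.8% and 17.2% of all genes, 32.9% together), with a median of -0.20 against 0.06. With the arrays centred on their medians, the split in middle minus primordial was 57 lower and 10 higher. The total in last minus middle depended on single arrays: 26 genes were called in all, 6 without middle replicate 1, 14 without middle replicate 2 and 16 without last replicate 1. From primordial to middle the total was 62, and 40 without middle replicate 1. From primordial to last it was 40, and 20 without primordial replicate 1 and 22 without primordial replicate 2.

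**Figure D3:**
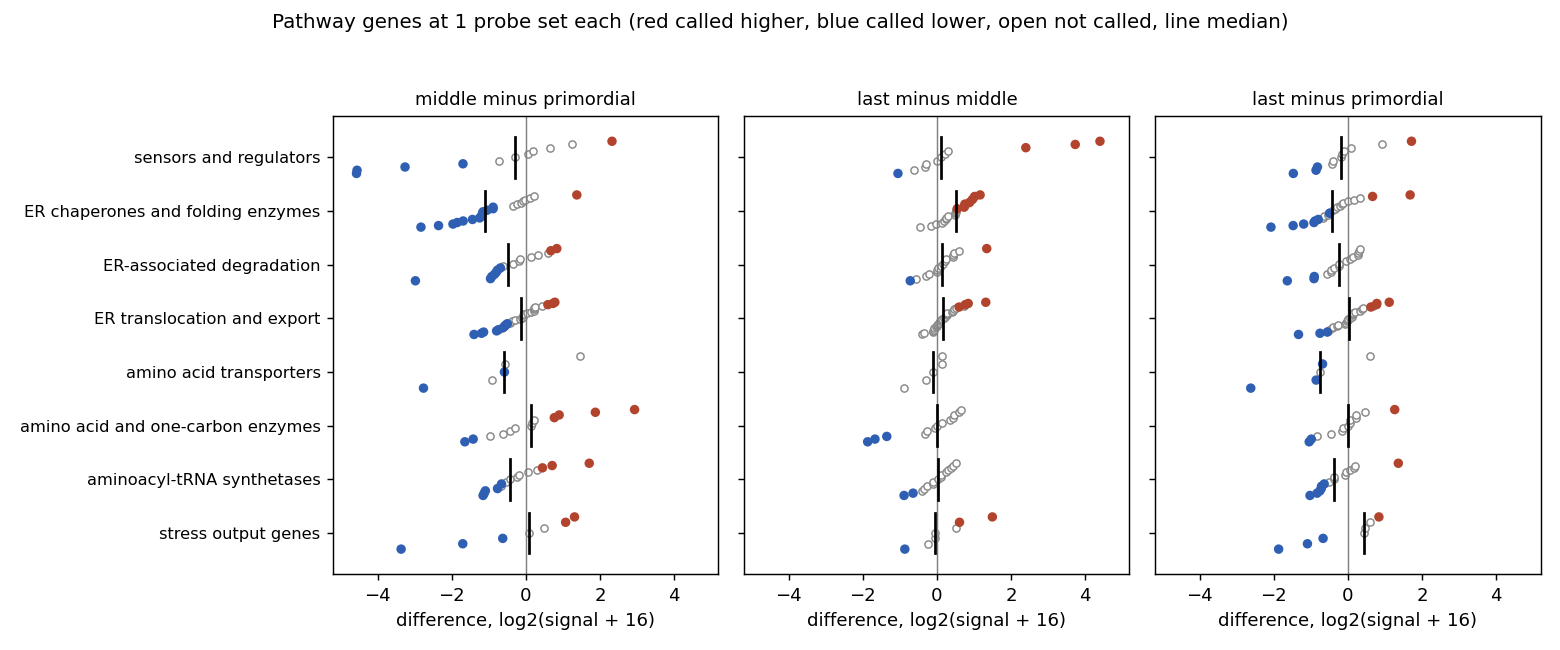
Stage differences of 117 pathway genes in 8 groups by role, 1 point per gene at its brightest probe set, on the log2(signal + 16) scale (red called higher, blue called lower, open not called, vertical line median of the group). The ER chaperones and folding enzymes have a median of -1.10 in middle minus primordial and 0.51 in last minus middle.

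Among the sensors and regulators the widest differences were in ATF3, CEBPB and PPP1R15A. EIF2AK3, ERN1, ATF6 and TRIB3 had 0 probe sets with 1 symbol and are not analysed here. Of 11 tested genes 4 were called lower and 1 higher in middle minus primordial (22.5% and 22.9% of all genes). In last minus middle 3 were higher and 1 lower (8.8% and 7.23%). From primordial to last 3 were lower and 1 higher (15.8% and 17.2%). ATF3, a stress-induced transcription factor, had signals of 6492 and 4428 in the primordial stage, 209.8 and 210.4 in the middle stage and 4431 and 5130 in the last stage. It was lower by -4.57 ± 0.22 in the middle than in the primordial arrays (adjusted p = 2.42e-06), higher by 4.40 ± 0.22 in the last than in the middle arrays (adjusted p = 7.18e-06), and -0.17 ± 0.22 in last minus primordial (adjusted p = 0.583). CEBPB, a partner of ATF4, was at -4.56 ± 0.20 and 3.74 ± 0.20 in the first and second comparison. PPP1R15A, which directs a phosphatase to eIF2 alpha and so restores translation, was at -3.26 ± 0.25 and 2.40 ± 0.25, with signals of 3590 and 2689, then 248.2 and 385.5, then 1699 and 1710. All 3 genes kept these calls in all 15 alternatives.

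Other genes of that group had other patterns. IMPACT, an inhibitor of GCN2, rose by 2.33 ± 0.22 from the primordial to the middle arrays (adjusted p = 6.14e-05) and was also higher in the last than in the primordial arrays, by 1.72 ± 0.22 (adjusted p = 0.000654). CEBPG, which pairs with ATF4 at its target genes, was lower than in the primordial stage by -1.70 ± 0.28 in the middle (adjusted p = 0.00109) and -1.47 ± 0.28 in the last stage (adjusted p = 0.00404), with 0.22 ± 0.28 in last minus middle (adjusted p = 0.619). EIF2S1, the alpha subunit of eIF2 itself, had no called difference, at -0.31 ± 0.18, 0.11 ± 0.18 and -0.20 ± 0.18 (adjusted p = 0.178, 0.711 and 0.418). It was called lower in middle minus primordial with median centring (-0.55, adjusted p = 0.0302, the lowest of a range up to 0.532).

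ER chaperones and folding enzymes had, of the 8 groups, the largest share called lower in middle minus primordial. In that group 14 of 22 fell and 1 rose (22.5% and 22.9% of all genes), counts that were the same with both other scalings. In last minus middle 8 rose (8.8% of all genes), and in last minus primordial 7 fell and 2 rose (15.8% and 17.2%). These later counts depended on single arrays. Of the former, 1 gene was called without middle replicate 1, 3 without last replicate 1, 5 without either primordial replicate, 5 with no filter or with the compared stages alone and 4 with no intensity trend. Of the latter, 2 were lower without either primordial replicate, 4 without last replicate 2 and 4 with no intensity trend, and 10 against 1 higher with centring. HSPA5, also called BiP, the main ER chaperone, had signals of 30639 and 30543 in the primordial stage, 12055 and 15071 in the middle stage and 25054 and 27407 in the last stage. It was lower by -1.18 ± 0.13 in the middle arrays (adjusted p = 0.000154) and higher by 0.96 ± 0.13 from middle to last (adjusted p = 0.0016), and last minus primordial was -0.22 ± 0.13 (adjusted p = 0.23).

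DNAJB9 and DNAJB11, cochaperones of HSPA5, and MANF, a secreted ER stress protein, had larger differences in middle minus primordial. DNAJB9 was at 4416 and 5116, then 679.2 and 628.8, then 942.8 and 1316, a difference of -2.83 ± 0.21 in middle minus primordial (adjusted p = 2.02e-05) and of -2.08 ± 0.21 in last minus primordial (adjusted p = 0.000223). DNAJB11, which acts with SDF2L1, was lower by -2.36 ± 0.21 and -1.48 ± 0.21 in the same comparisons (adjusted p = 4.41e-05 and 0.00103), in the order of stages that SDF2L1 had. MANF was at -1.97 ± 0.21 in middle minus primordial (adjusted p = 0.000111). FKBP14, a prolyl isomerase of the ER that acts on collagen, was the 1 gene of the group that rose in middle minus primordial. It was higher by 1.38 ± 0.22 in the middle and 1.68 ± 0.22 in the last arrays over the primordial arrays (adjusted p = 0.000903 and 0.000666).

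**Figure D4:**
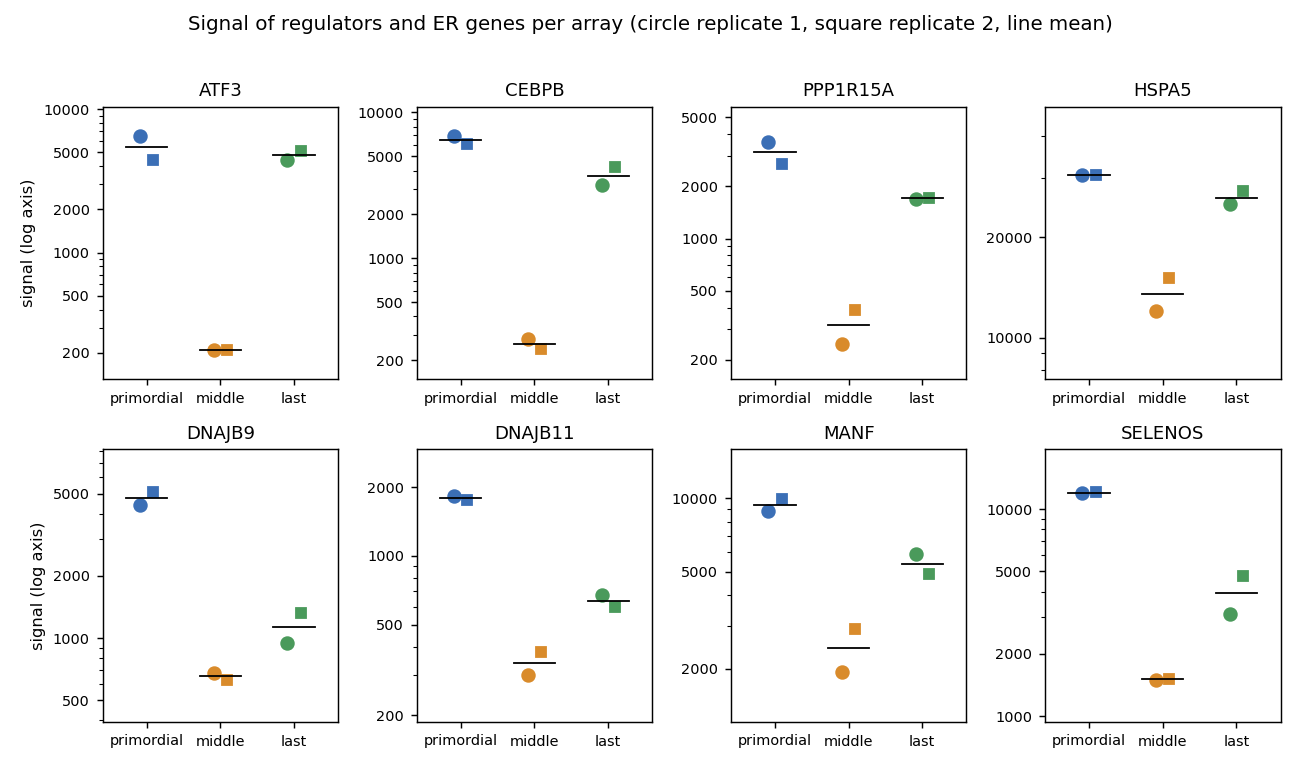
Signal per array of 3 regulators and 5 ER genes, on a log axis with its own range per panel (circle replicate 1, square replicate 2, line mean). In all 8 panels both middle arrays lie below every other array, with ATF3 at 209.8 and 210.4 there and at 4428 or above elsewhere.

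Genes of ER-associated degradation, which carries misfolded protein back to the cytosol, were called lower in 7 of 16 cases and higher in 2 in middle minus primordial, or in 8 cases, all lower, with median centring of the arrays. Without primordial replicate 2 or middle replicate 1, 2 were called lower. Over all genes, 22.5% were called lower and 22.9% higher in middle minus primordial. SELENOS, a selenoprotein of this machinery, had signals of 11912 and 12125, then 1506 and 1509, then 3121 and 4763. It was lower by -2.98 ± 0.20 in middle minus primordial (adjusted p = 1.36e-05), higher by 1.35 ± 0.20 in last minus middle (adjusted p = 0.00244) and lower by -1.64 ± 0.20 in last minus primordial (adjusted p = 0.000564), all kept in all 15 alternatives. In last minus primordial 3 genes of the group fell, against 15.8% of all genes.

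Of 28 genes of ER translocation and export, 9 were called lower and 3 higher in middle minus primordial, but 5 lower and 6 higher with quantile normalization and 12 and 1 with median centring of the arrays. Without middle replicate 1, 4 were lower, and without either primordial replicate 5. From primordial to last 4 were higher and 3 lower, or 3 and 6 with centring. Over all genes, 22.5% were called lower and 22.9% higher in middle minus primordial, and 15.8% and 17.2% in last minus primordial. SEC23B, of the vesicle coat that leaves the ER, was lower than in the primordial arrays by -1.40 ± 0.20 (middle) and -1.33 ± 0.20 (last) (adjusted p = 0.000533 and 0.0014). The retrieval receptors KDELR1 and KDELR2, which bring escaped ER proteins back, were instead higher in the last than in the primordial arrays, by 1.12 ± 0.21 and 0.78 ± 0.15 (adjusted p = 0.00361 and 0.00447). KDELR2 had signals of 4599 and 4506, then 4078 and 4639, then 7493 and 8187.

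The genes of amino acid supply were called in both directions, as were genes of the whole array. Over all genes, 22.9% were called higher and 22.5% lower in middle minus primordial, and 7.23% lower in last minus middle. Among enzymes of amino acid and one-carbon metabolism 4 of 13 were called higher and 2 lower in middle minus primordial, or 3 and 3 with median centring of the arrays and 4 and 4 with quantile normalization. Without primordial replicate 2, 2 were higher. In last minus middle 3 were lower, and 1 without middle replicate 1. PSAT1, of serine synthesis, had signals of 1832 and 1238 in the primordial stage, 11711 and 11545 in the middle stage and 4382 and 3023 in the last stage. It was higher by 2.94 ± 0.23 in middle minus primordial (adjusted p = 2.55e-05), lower by -1.67 ± 0.23 in last minus middle (adjusted p = 0.00158) and higher by 1.26 ± 0.23 in last minus primordial (adjusted p = 0.00361), all kept in all 15 alternatives. Both middle arrays were the highest for PSAT1 and the lowest for ATF4.

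PSPH, the next enzyme of serine synthesis, was at 420.2 and 284.6, then 1280 and 1349, then 532.4 and 225.6. It rose by 1.88 ± 0.36 in middle minus primordial (adjusted p = 0.00254) and fell by 1.87 ± 0.36 in last minus middle (adjusted p = 0.00786), the latter lost without middle replicate 1 (-1.91, adjusted p = 0.0821) or 2 (-1.83, 0.0641), over a range of 0.001 to 0.0821. SHMT1, which passes the carbon of serine to folate in the cytosol, fell by 1.35 ± 0.22 in last minus middle (adjusted p = 0.00382), a call lost without middle replicate 1 (-1.19, adjusted p = 0.0565, in a range from 0.00313). PSAT1, PSPH and ASNS were all called lower in the last than in the middle arrays, but ASNS had no called difference between the middle and primordial arrays.

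MTHFD2, a mitochondrial folate enzyme, and GLUL, glutamine synthetase, were lower in the middle than in the primordial arrays, by -1.65 ± 0.24 and -1.42 ± 0.22 (adjusted p = 0.000582 and 0.000839). MTHFD2 had signals of 1276 and 1151, then 309.5 and 456.7, then 630.8 and 531.7, with both primordial arrays above and both middle arrays below the rest. SLC7A1, a transporter of arginine and lysine, was at 2572 and 3395 on the arrays labelled primordial and between 386.5 and 562.5 on the other 4. It was lower by -2.76 ± 0.25 in the middle and -2.62 ± 0.25 in the last arrays (adjusted p = 4.44e-05 and 0.000148). Over all genes, 22.5% were called lower in middle minus primordial and 15.8% in last minus primordial. Of the 5 tested transporters 2 were called lower in middle minus primordial, or 4 with centring, 3 with quantile normalization and 1 with no filter or without primordial replicate 2 or middle replicate 1. Against the primordial arrays, 3 were lower in the last arrays, and 1 without primordial replicate 2.

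Among 15 aminoacyl-tRNA synthetases, which load amino acids on tRNA, 5 were lower and 3 higher in middle minus primordial, or 7 and 2 with centring, and 3 were lower without either primordial replicate or middle replicate 1, or with no intensity trend. In last minus primordial 6 were lower and 1 higher, and 1 was lower without primordial replicate 1, 2 without primordial replicate 2 and 3 without either last replicate. Over all genes, 22.5% were called lower and 22.9% higher in middle minus primordial, and 15.8% and 17.2% in last minus primordial. GARS, SARS and AARS, for glycine, serine and alanine, had middle minus primordial differences of -1.09 ± 0.19, -1.15 ± 0.22 and -1.12 ± 0.23 (adjusted p = 0.00147, 0.00228 and 0.00373). DARS, for aspartate, was higher by 1.71 ± 0.23 in the middle and 1.36 ± 0.23 in the last arrays (adjusted p = 0.000358 and 0.00232).

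**Figure D5:**
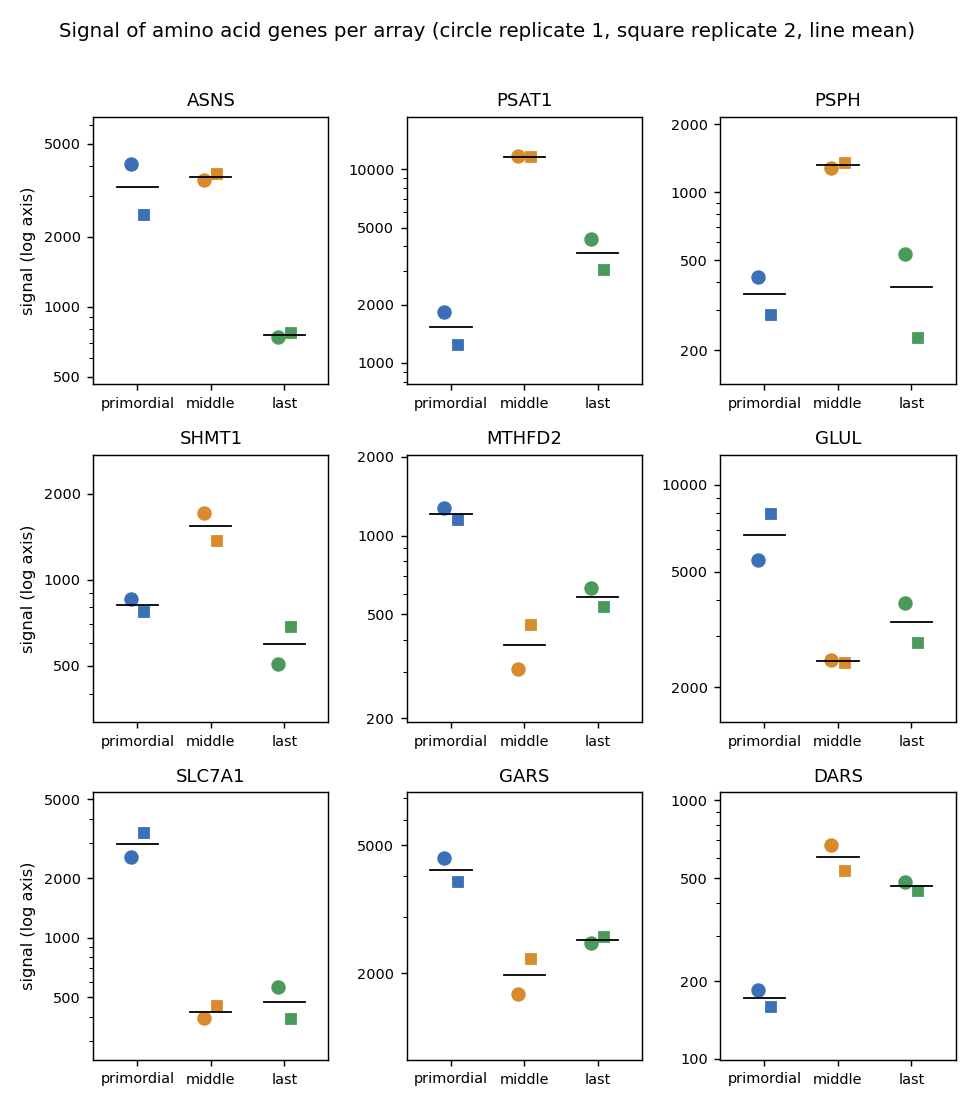
Signal per array of ASNS and 8 other genes of amino acid supply, on a log axis with its own range per panel (circle replicate 1, square replicate 2, line mean). PSAT1, PSPH and SHMT1 are highest in both middle arrays, MTHFD2 and GLUL lowest there, and ASNS lowest in both last arrays at 743 and 769.

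Of 7 tested stress output genes 3 were lower and 2 higher in middle minus primordial (22.5% and 22.9% of all genes), or 3 and 3 with quantile normalization. PMAIP1, a cell death gene also called NOXA, was lower by -3.37 ± 0.36 (adjusted p = 0.000112) and SQSTM1, an autophagy receptor, by -1.70 ± 0.17 (adjusted p = 8.87e-05). The lipoprotein receptor VLDLR was higher by 1.31 ± 0.18 (adjusted p = 0.000371) and TXNIP, which binds thioredoxin, by 1.07 ± 0.22 (adjusted p = 0.0036). In last minus primordial PMAIP1 and SQSTM1 were still lower, by -1.87 ± 0.36 and -1.09 ± 0.17 (adjusted p = 0.00447 and 0.00186).

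The genes whose pattern over the 6 arrays was most like each member were taken by Pearson's r of log2(signal + 16) among the genes tested. Each r describes 6 arrays that fall into 3 stages. For ATF4 they were APOE, MESDC1 and RASSF1 (r = 0.997, 0.997 and 0.996), and for SDF2L1 the probe set annotated LOC574051, RHEB and PLK3 (r = 0.999, 0.997 and 0.996). For DDIT3 they were NMB, OCIAD1 and HSP70.2, the last an inducible heat shock protein (r = 0.997, 0.982 and 0.978), and for XBP1 PIP4K2A, ZFAND5 and CREBZF (r = 0.995, 0.995 and 0.989). For ASNS they were DEPDC7, BAIAP2L1 and CDC42SE2 (r = 0.987, 0.985 and 0.983). APOE, the lipid carrier nearest to ATF4, had mean signals of 5828, 447 and 1940 in the 3 stages. A high r does not measure the size of a change. OCIAD1 had mean signals of 2712, 2296 and 2655 and no called stage difference by the F-test (adjusted p = 0.411).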

How the data were processed

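RNA of porcine follicles was measured on 6 arrays, 2 for each of 3 stages, and samples were grouped by their titles. A description attached to all samples calls them primordial, against the titles. The authors deposited a linear intensity per probe set, made with GCOS per the submitters' processing notes, with version and settings not stated there. Each array had been scaled: the 2% trimmed mean of the deposited intensity was 500.1 on all 6. Values were used as log2(signal + 16). The 124 control probe sets were left out, and of 23999 others the 40% with the lowest mean signal (under 91.3), which left 14399. Limma 3.58.1 in R 4.3.3 was fitted to all 6 arrays with an intensity trend and no replicate block (3 residual and 6.33 prior degrees of freedom), two-sided, with Benjamini-Hochberg adjustment over the probe sets tested. The fit was tested on simulated data. Symbols come from the platform annotation, which can be old, and those of the 5 measured members matched RefSeq by gene identifier. Members, lists and tests were chosen with earlier results of these data known. Genes were named by rule: all members, HSPA5, EIF2AK3, ERN1, ATF6, ATF3, TRIB3 and EIF2S1, up to 4 genes with the smallest p from each list among those called in each comparison (the text gives examples of these), and the 3 genes most like each member. In middle minus primordial FKBP14, as the gene of its group that rose, and CEBPG were named outside the rule, after their values were seen. Lists of cell type markers and of immediate-early genes were summed at 1 probe set per gene. The number of arrays limits the precision. Alternatives were the pseudocount, the filter, the scaling, a replicate block, each array left out, no intensity trend and a fit of the compared stages alone.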

Additional observations from a re-analysis of the deposited data

How the results depend on the processing

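Of 1580 repeats of the single-gene results under the alternatives, 1455 kept their direction and their side of the threshold, 113 lost the call, 4 gained it and 8 turned sign; each result that turned sign was uncalled. ASNS in middle minus primordial was -0.060 when arrays were centred on their medians, and from -0.18 (without primordial replicate 2) to 0.54 with an array left out. XBP1 in last minus middle was -0.094 with quantile normalization, and from -0.14 (without last replicate 2) to 0.26 with an array left out. In last minus primordial DDIT3 went from -0.36 (without primordial replicate 2) to 0.64 and was -0.066 without last replicate 2, and ATF3 went from -0.44 to 0.11 (without primordial replicate 1). EIF2S1 in last minus middle went from -0.026 (without last replicate 1) to 0.24. The causes were not tested. With 1 array left out, members called ranged from 2 to 4 in middle minus primordial, 2 to 4 in last minus middle, 3 to 4 in last minus primordial and 3 to 4 in middle minus the mean of the others. Pathway genes called ranged from 40 to 68, 6 to 23, 20 to 40 and 22 to 52 in the same order, and probe sets of the whole array from 4356 to 7189, 727 to 2172, 2730 to 4297 and 2037 to 5320, with the lowest value without middle replicate 1 in all but last minus primordial. Leaving out an array also leaves its stage with 1, which is assumed to vary like the other stages.

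The replicate numbers are shared by the stages. Arrays with the same number did not deviate together (r = 0.059, -0.048 and 0.032 for the 3 pairs of stages). These values show no strong shared deviation, but with so few arrays per stage they cannot tell whether same-numbered samples were paired. With the replicate block, 6601, 2279, 4532 and 5174 probe sets were called against 6821, 2481, 4786 and 5399 without it, and 4, 4, 3 and 4 members in both fits. Probe sets dim on all arrays, such as the second of ATF4, limit what can be seen of small differences.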
